A study of Mus musculus with 16 samples.

Results

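Voltage-gated and cardiac ion channel genes were followed in mouse embryonic stem cells (mESCs) of the line CGR8-Myh6-GFP, which carries a green fluorescent reporter driven by the promoter of *Myh6*, a heart muscle myosin gene. Members were chosen by gene symbol: potassium channel names beginning with Kcn, sodium channel subunits (Scn), calcium channel subunits (Cacna, Cacnb and Cacng), the 4 pacemaker channels (Hcn) and the ryanodine receptors Ryr1 to Ryr3. The array held 230 probes for 145 such genes out of 60273 probes in all. Of these, 149 probes for 120 genes were kept, because in 1 or more groups the scanner's software flagged every array's spot as well above background. The choice used signal height in any 1 group, so a gene that was high in a single group could enter through that group. All cells were differentiating on gelatine-coated plates and received their treatment from day 4. They were given the vehicle DMSO, 0.25 mg/ml of WS1442 (a hawthorn extract) or 0.1 mg/ml of MeOH eluate (a fraction of that extract) for 6 h or 24 h, which gave 2 DMSO, 3 WS1442 and 3 MeOH eluate samples per time point and 16 arrays in 6 groups. All 6 groups were of this 1 line, and the labels number the samples as replicates without saying that they came from separate cultures, so p-values measure only the spread between these samples. The RNA was of whole wells, in which fewer cells of a type and less RNA per cell cannot be told apart.

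Ion channels carry the currents of the action potential. Sodium channels give its upstroke, L-type and T-type calcium channels let calcium in, and potassium channels repolarise the membrane. Inward rectifier channels hold the resting potential, HCN channels drive pacemaking, and ryanodine receptors release calcium from the sarcoplasmic reticulum. Pore-forming alpha subunits are joined by accessory subunits that set trafficking and gating, and many family members are used in neurons rather than in heart muscle.

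On this array most name cells hold a transcript accession instead of a symbol. Symbols were therefore taken from the name cell for 61 probes and through RefSeq accessions for the other 169 probes, of which 15 and 134 were kept. Of the 120 genes, 95 had 1 kept probe and 25 had several, and each gene is given at its brightest kept probe. A total of 111 kept probes were well above background on all 16 arrays. Just inside the limit lay *Scn1a* and a dimmer probe of *Kcnj9*, each well above background on 4 arrays. The brightest probe of *Kcnj9* was well above background on all 16 arrays. Just outside lay *Kcnc1* (at one of its probes), which was well above background on 8 arrays but never on all arrays of a group, and *Kcnk12* and 1 probe of *Kcnmb2* on 6 each. The 25 genes with no kept probe included *Kcnd2*, *Kcne2*, *Kcnj1*, *Kcna3* and *Ryr3*, and 16 of them were well above background on no array at any probe. Of 35 genes listed as cardiac channels, 32 were kept, the others being *Kcnd2*, *Kcne2* and *Scn4b*. Signals are given below as normalized log2 signal and changes as log2 differences of group means, treated minus DMSO unless stated otherwise. Signals of different probes were not compared with each other.

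Between 55.1% and 63.0% of the gene spots of an array were well above background. The 6 h samples lay on 1 slide and the 24 h samples on another, so time and slide cannot be told apart and only changes relative to DMSO of the same time point were compared. Of 10 cardiomyocyte markers 8 were kept. *Myh6* was well above background on 3 arrays and *Myh7* on none, while *Tnnt2*, *Actn2*, *Myl4*, *Myl7*, *Myl2*, *Tnnc1* and *Ttn* were well above background on all 16. All 10 neuron markers were kept. Cy3 incorporation was 31.8 to 32.8 pmol per µg of labelled RNA in WS1442 24 h samples, against 25.8 to 26.1 in DMSO 24 h and 27.1 to 30.3 in MeOH eluate 24 h samples. The RNA integrity number was lowest, 8.6, in WS1442 24 h replicate 2.

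More ion channel genes passed the test at 24 h than at 6 h, and so did more of all genes. With WS1442 for 6 h, 3 of 120 genes rose (3.82% of all genes) and 3 fell (1.29% of all genes) at an adjusted p-value (limma, Benjamini-Hochberg over all probes tested) under 0.05, which is 5% of the members against 5.11% of all 31059 genes tested. With MeOH eluate for 6 h, 8 rose (8.42%) and 5 fell (8.44%), which is 10.8% against 16.9%. With WS1442 for 24 h, 12 rose (12.4%) and 9 fell (12.1%), which is 17.5% against 24.5%. With MeOH eluate for 24 h, 5 rose (9.35%) and 11 fell (8.46%), which is 13.3% against 17.8%. The share of members called was thus near that of all genes in the first comparison and below it in the others. The median log2 change over the 120 members was -0.05, 0.10, 0.11 and -0.01 in this order, beside -0.01, -0.00, 0.04 and 0.01 over all genes. At 24 h, *Cacna1g* and *Cacna2d2* changed by more than 2-fold with MeOH eluate. A total of 36 genes passed in at least 1 comparison with DMSO and 84 in none. At a 2-fold change with an unadjusted p-value under 0.05, 0, 3, 0 and 2 members passed, beside 0.428%, 2.1%, 2.05% and 2.96% of all genes. Members such as *Kcnv1* were kept only through the DMSO 6 h arrays, so a fall of theirs within the 6 h counts is a description.

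Of the 56 calls against DMSO, 21 were kept in every fit that left out 1 of the 16 arrays. None of the 6 with WS1442 at 6 h was among them. With MeOH eluate at 6 h they included *Cacna1g*, *Kcnn1* and *Scn8a*. With WS1442 at 24 h they included *Cacna1g*, *Cacna2d2*, *Cacnb3*, *Kcna1*, *Kcna10*, *Kcna4*, *Kcna5* and *Kcnj6*. With MeOH eluate at 24 h they were *Cacna1g*, *Cacna2d2*, *Cacnb3*, *Cacng4*, *Kcnj5*, *Kcnj6* and *Kcnmb4os2*. The number called with WS1442 at 6 h was 1 without DMSO 6 h replicate 1, 1 without DMSO 6 h replicate 2 and 1 without WS1442 6 h replicate 3. With MeOH eluate at 6 h it was 7 without DMSO 6 h replicate 1 and 7 without MeOH eluate 6 h replicate 3.

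**Figure D1:**
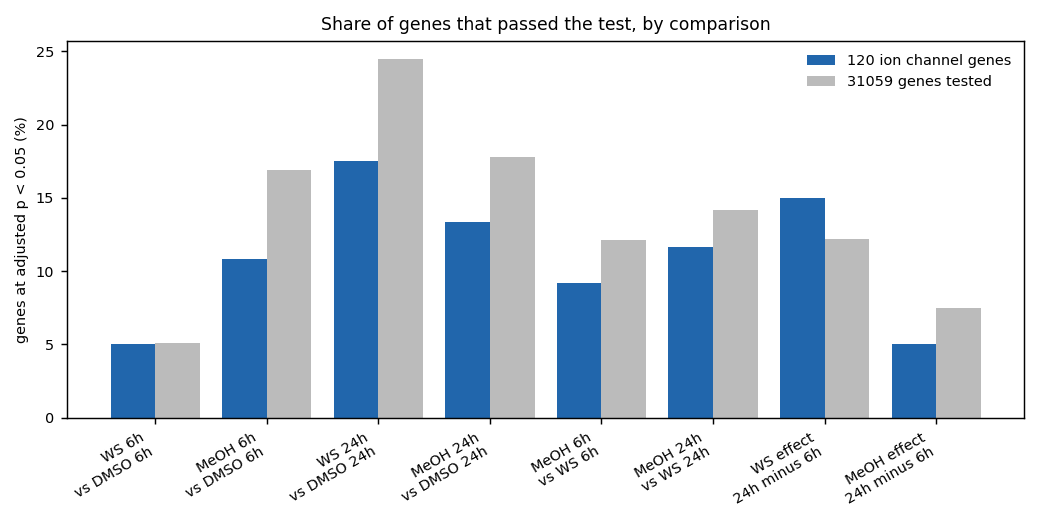
Share of genes at an adjusted p-value under 0.05 (y axis, percent) in each of the 8 comparisons (x axis; WS, WS1442; MeOH, MeOH eluate), for the 120 ion channel genes (blue) and all 31059 genes tested (grey). The blue bars reach 17.5% at most, with WS1442 for 24 h, where the grey bar reaches 24.5%.

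Treated and DMSO arrays did not overlap for 35 of 120 members with WS1442 at 6 h (35.5% of all genes), 64 with MeOH eluate at 6 h (50.1% of all genes), 53 with WS1442 at 24 h (51.1%) and 36 with MeOH eluate at 24 h (43.4%). Every gene called against DMSO was among these. The 24 h arrays of slide row 2 had more spots above background than those of row 1, and each row held 1 DMSO array. The sign of the change was the same within row 1 and within row 2 for all 6, 13, 21 and 16 genes called in the 4 comparisons, in differences of means added after seeing the data and without a test. It could not have been otherwise, because groups that do not overlap give the same sign within any row. The equal signs are therefore no check on the slide row.

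**Figure D2:**
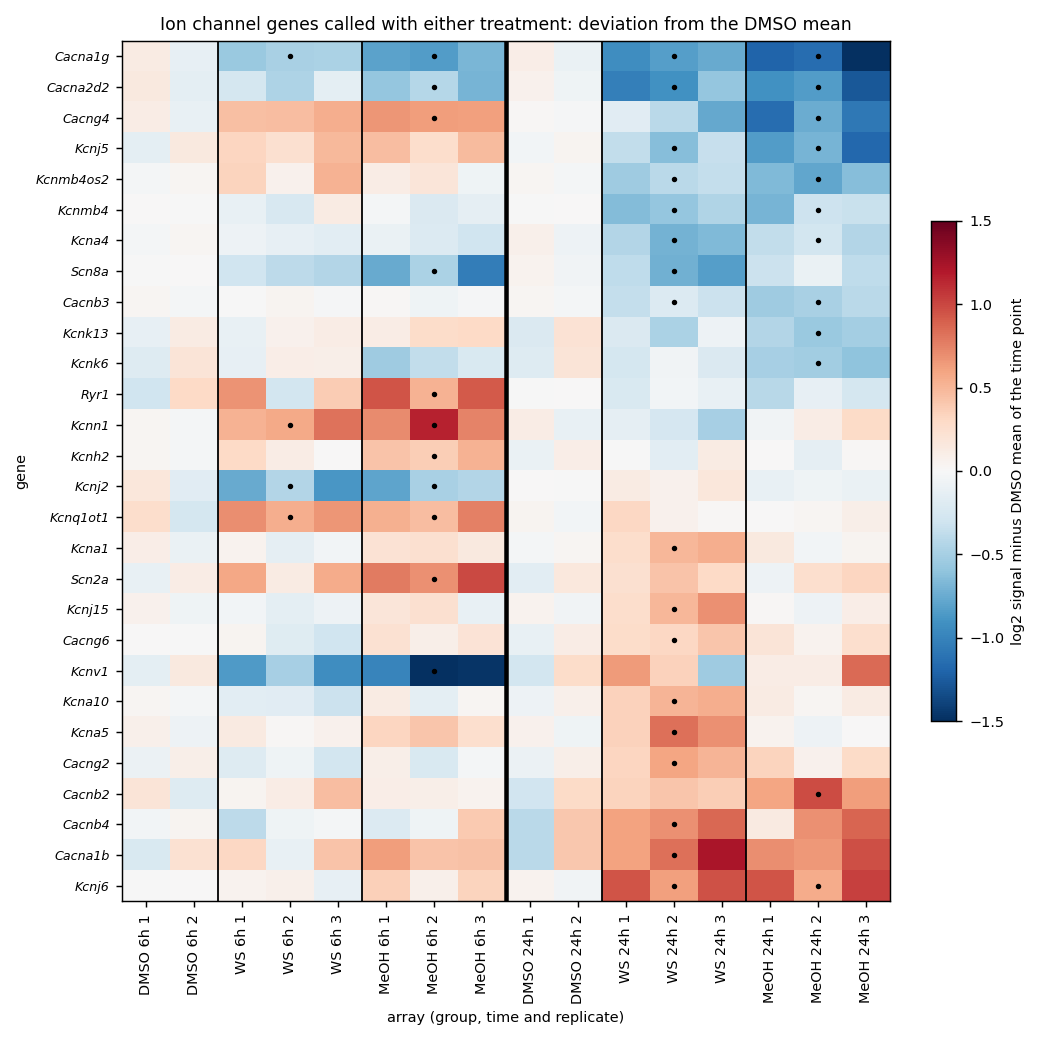
Deviation of each array (x axis) from the DMSO mean of its time point, in log2 signal (colour, limited to 1.5 in either direction), for the 28 genes (y axis) named in the text among the 36 called with either treatment at either time. Black dots mark the comparison with DMSO in which the gene passed. *Cacna1g* is the gene with a dot in each of the 4 treated groups, and its treated arrays lie below DMSO throughout.

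Calcium channel genes held both 2-fold decreases at 24 h. *Cacna1g*, which encodes a pore subunit of T-type calcium channels used in pacemaking and in embryonic heart cells, had log2 signals of 7.02 and 6.79 with DMSO at 6 h, 6.35, 6.42 and 6.43 with WS1442, and 6.10, 6.06 and 6.22 with MeOH eluate. At 24 h the values were 7.17 and 6.96 with DMSO, 6.14, 6.24 and 6.31 with WS1442, and 5.86, 5.92 and 5.53 with MeOH eluate. Every treated array lay below both DMSO arrays of its time point. The log2 change was -0.50 ± 0.13 (SE, adjusted p = 0.038 by limma) with WS1442 and -0.78 ± 0.13 (adjusted p = 0.00093) with MeOH eluate at 6 h. At 24 h it was -0.84 ± 0.13 (adjusted p = 0.00037, limma) with WS1442 and -1.29 ± 0.13 (adjusted p = 7.0e-06) with MeOH eluate, a 2.45-fold decrease. The 2 treatments share the DMSO arrays of a time point, so their changes are not independent. The call with WS1442 at 6 h was lost in 7 of the fits that left out 1 array, with an adjusted p-value of up to 0.42, and the other 3 calls were kept in all of them.

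*Cacna2d2*, an accessory alpha2delta subunit that raises channel density at the membrane, also fell at 24 h. Its signals were 9.03 and 8.91 with DMSO, 7.95, 8.06 and 8.39 with WS1442, and 8.05, 8.13 and 7.70 with MeOH eluate. No treated array reached the DMSO arrays. It fell by 0.84 ± 0.15 (SE, adjusted p = 0.0011, limma) with WS1442 and by 1.01 ± 0.15 (adjusted p = 0.00026) with MeOH eluate, and at 6 h it fell with MeOH eluate (-0.57 ± 0.15, adjusted p = 0.019) while the WS1442 value was -0.29 (adjusted p = 0.33). *Cacna2d1*, its relative of muscle L-type channels, passed in no comparison, with changes between -0.66 and 0.32.

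Among the 10 alpha1 subunits kept, each at its brightest probe, *Cacna1g* was the only one to fall in these comparisons. Dimmer probes that passed are given at the end. *Cacna1b*, the pore of neuronal N-type channels, was the only one to rise at the brightest probe, by 0.88 ± 0.26 with WS1442 at 24 h (adjusted p = 0.023, limma). Its signal was 3.69 and 4.50 with DMSO and 4.70, 4.92 and 5.32 with WS1442, so that the DMSO arrays differed from each other by almost as much. *Cacna1c*, the pore of the cardiac L-type channel, had values of 5.37 and 5.29 with DMSO at 24 h, 4.95, 4.63 and 4.51 with WS1442 and 4.98, 4.42 and 4.83 with MeOH eluate. All treated arrays lay below both DMSO arrays, but the changes of -0.63 (adjusted p = 0.067, limma) and -0.58 (adjusted p = 0.11) did not pass. *Cacna1h*, the other T-type gene of the heart, changed by between -0.17 and 0.10 at its brightest probe and passed in none there. *Cacna1d*, an L-type pore of pacemaker cells, was dim, well above background on no DMSO array at 6 h, and passed in none.

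Of the 4 beta subunits, which bind the pore from inside the cell, *Cacnb3* fell at 24 h with both treatments (chosen for mention after its values were seen). It read 9.65 and 9.60 with DMSO, 9.27, 9.42 and 9.29 with WS1442 and 9.09, 9.13 and 9.21 with MeOH eluate. The changes were -0.30 ± 0.06 (adjusted p = 0.0035, limma) and -0.48 ± 0.06 (adjusted p = 9.0e-05), and at 6 h all 8 arrays lay between 8.67 and 8.77. *Cacnb2*, the main beta subunit of heart, rose with MeOH eluate at 24 h by 0.73 ± 0.21 (adjusted p = 0.026), from 3.77 and 4.34 to between 4.65 and 5.03. *Cacnb4* rose with WS1442 at 24 h by 0.72 ± 0.25 (adjusted p = 0.047), from 4.70 and 5.50 to between 5.71 and 5.96. For both genes the DMSO pair was wide, and the increase was larger in slide row 2 (1.26 and 1.14) than in row 1 (0.33 and 0.28). Without DMSO 24 h replicate 1, which lay in row 2, the number of members called fell from 21 to 12 with WS1442 and from 16 to 10 with MeOH eluate at 24 h.

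*Cacng4*, a gamma subunit that also regulates glutamate receptors in neurons, moved in opposite directions at the 2 time points. At 6 h it read 4.89 and 4.67 with DMSO and 5.45, 5.41 and 5.40 with MeOH eluate, an increase of 0.64 ± 0.18 (adjusted p = 0.028, limma). At 24 h it read 5.25 and 5.21 with DMSO and 4.09, 4.49 and 4.16 with MeOH eluate, a decrease of 0.99 ± 0.18 (log2 change -0.99, adjusted p = 0.0015). The second kept probe of the gene, which is dimmer, gave 0.23 and 0.18 and passed in neither. With WS1442 the values were 0.49 at 6 h and -0.45 at 24 h, and neither passed. *Cacng2* and *Cacng6* (chosen after their values were seen) rose with WS1442 at 24 h, by 0.48 and 0.34, at their brighter probe only.

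**Figure D3:**
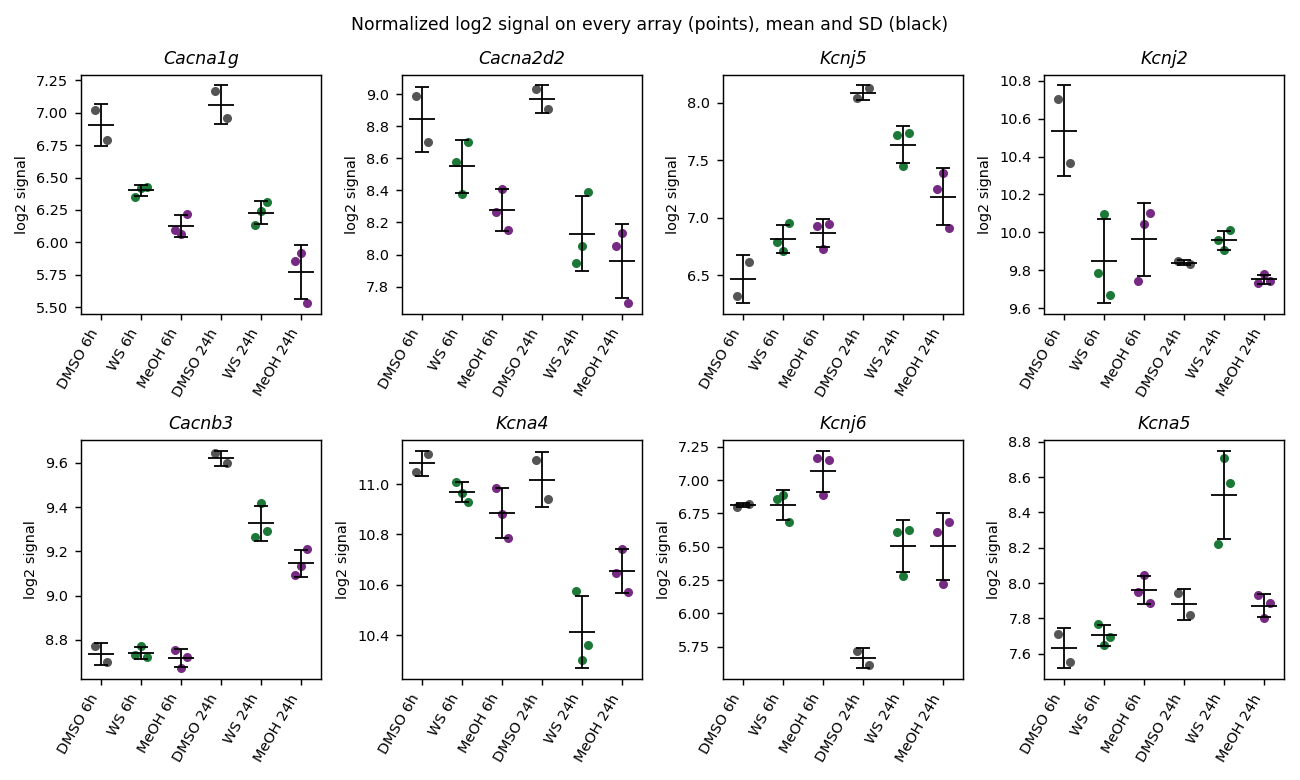
Normalized log2 signal (y axis) on every array (points) with the mean and SD of each group (black) for *Cacna1g*, *Cacna2d2*, *Kcnj5*, *Kcnj2*, *Cacnb3*, *Kcna4*, *Kcnj6* and *Kcna5* in the 6 groups (x axis; n = 2 for DMSO, n = 3 otherwise; y axes differ between panels and do not start at 0). *Cacna1g* lies below DMSO in all treated groups, whereas *Kcnj5* lies below DMSO only at 24 h.

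Inward rectifier genes responded by time point. *Kcnj2*, the main subunit of the background current that holds the resting potential of heart muscle, had log2 signals of 10.71 and 10.37 with DMSO at 6 h, 9.78, 10.10 and 9.67 with WS1442 and 9.74, 10.04 and 10.10 with MeOH eluate. It fell by 0.69 ± 0.12 (SE, adjusted p = 0.0069, limma) with WS1442 and by 0.57 ± 0.12 (adjusted p = 0.0056) with MeOH eluate. At 24 h the 8 arrays lay between 9.73 and 10.01, with changes of 0.12 and -0.09 that did not pass. At 6 h the DMSO arrays differed from each other by more than at 24 h, and the change with WS1442 was -0.27 within slide row 1 and -0.98 within row 2.

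*Kcnj5*, a subunit of the acetylcholine-activated channel of atrial and pacemaker cells, fell at 24 h. Its signals were 8.04 and 8.13 with DMSO, 7.72, 7.45 and 7.74 with WS1442 and 7.25, 7.39 and 6.91 with MeOH eluate, all treated arrays lying below DMSO. The decreases were 0.45 ± 0.14 (log2 change -0.45, adjusted p = 0.033, limma) and 0.91 ± 0.14 (log2 change -0.91, adjusted p = 0.00042). At 6 h, when DMSO arrays read 6.32 and 6.61, the treated arrays lay above them, between 6.71 and 6.95, with values of 0.35 and 0.40 that did not pass (adjusted p = 0.19 and 0.074). *Kcnj3*, its partner subunit in that channel, passed in no comparison, with values between 0.26 and 0.35. *Kcnj6*, a related subunit of neurons, rose at 24 h from 5.72 and 5.61 to 6.61, 6.28 and 6.63 with WS1442 and to 6.61, 6.22 and 6.69 with MeOH eluate. Both changes were 0.84 ± 0.15 (adjusted p = 0.00096 and 0.00097, limma), whereas the 2 dimmer probes of this gene gave between 0.07 and 0.40 and did not pass. Of 13 inward rectifier genes kept, *Kcnj15* also rose with WS1442 at 24 h (0.49 ± 0.13, adjusted p = 0.017). *Kcnj8* and *Kcnj11*, the pore genes of ATP-sensitive channels, were dim and passed in none.

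Beside these 24 h changes, markers of heart muscle and of neural cells moved. At 6 h the summed cardiomyocyte signal was 1593 to 1606 with DMSO, 1608 to 1714 with WS1442 and 1818 to 1835 with MeOH eluate, and that of neuron markers 14518 to 15691, 13156 to 13777 and 12942 to 13511. Over all genes at 24 h, 12.1% fell and 12.4% rose with WS1442, and 8.46% fell and 9.35% rose with MeOH eluate. At 24 h with WS1442, 4 of 8 cardiomyocyte markers fell and none rose, and with MeOH eluate 3 fell and none rose. The largest of these changes was in *Myl7*, an atrial myosin light chain, with -1.17 and -2.02 at 24 h, whereas it rose by 0.61 and 1.05 at 6 h. The summed signal of the 8 markers was 1722 to 1873 with DMSO, 1219 to 1289 with WS1442 and 1147 to 1178 with MeOH eluate. Sums add linear rather than log2 signals, so bright genes weigh most. The median log2 change over the 8 markers was -0.33 with WS1442 and -0.02 with MeOH eluate. Of 8 cardiac progenitor markers, 3 and 4 fell, and 1 and 0 rose. Of 10 neuron markers, 4 rose with each treatment and none fell, and the summed signal was 9670 to 9746, 10714 to 11211 and 11410 to 12524. Of 4 neural progenitor markers kept, 3 and 2 rose and none fell, and the sum was 3225 to 3325, 4920 to 5403 and 3953 to 4921. Of 4 smooth muscle markers, 1 rose and 1 fell with each treatment at 24 h. Their summed signal was 44528 to 48883 with DMSO, 47386 to 51260 with WS1442 and 54766 to 61373 with MeOH eluate. Of 6 pluripotency markers 1 fell with WS1442 at 24 h, of 5 endothelial markers 1 fell with MeOH eluate at 24 h, and no others of these 2 lists passed at 24 h. At 6 h, 2 pluripotency markers fell with MeOH eluate and none rose. The part of the marker changes in those of *Kcnj5*, *Cacna1g*, *Kcnj6* and the other channel genes was not tested.

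Of the voltage-gated potassium channel family, 31 alpha subunit genes were kept. With WS1442, none rose and 1 fell at 6 h (5.11% of all genes passed), and 5 rose and 2 fell at 24 h (24.5% of all genes). With MeOH eluate, 2 rose and 1 fell at 6 h (16.9% of all genes) and 2 rose and 1 fell at 24 h (17.8% of all genes). Compared directly at 24 h, 1 was higher and 6 were lower with MeOH eluate than with WS1442 (14.2% of all genes). *Kcnv1*, a silent subunit that modifies other channels of the family, was kept only through the DMSO 6 h arrays, where it was high, so its lower values with treatment are a description. It read 4.30 and 4.58 with DMSO at 6 h and 3.45, 2.88 and 2.97 with MeOH eluate, where 1 of 3 arrays was well above background.

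*Kcna5*, the channel of an ultrarapid repolarising current in atrial muscle, rose with WS1442 at 24 h. It read 7.94 and 7.82 with DMSO, 8.22, 8.71 and 8.57 with WS1442 and 7.93, 7.80 and 7.89 with MeOH eluate, so the WS1442 arrays stood above all others. The change was 0.62 ± 0.12 (adjusted p = 0.0014, limma) with WS1442 and -0.01 with MeOH eluate. *Kcna1* and *Kcna10* (chosen after their values were seen) rose with WS1442 at 24 h as well, by 0.44 and 0.47. Their MeOH eluate values did not pass. These small increases appeared in the samples with the highest Cy3 incorporation, and the part of labelling in them was not tested. *Kcna4*, a channel of the transient outward current, fell at 24 h by 0.60 ± 0.08 (log2 change -0.60, adjusted p = 0.00014) with WS1442 and by 0.36 ± 0.08 (log2 change -0.36, adjusted p = 0.0060) with MeOH eluate. Its signals were 11.09 and 10.94 with DMSO, 10.57, 10.30 and 10.36 with WS1442 and 10.65, 10.74 and 10.57 with MeOH eluate. *Kcnh2*, the channel of the rapid delayed rectifier current of heart, rose with MeOH eluate at 6 h from 6.46 and 6.41 to 6.86, 6.80 and 6.95 (0.44 ± 0.12, adjusted p = 0.020), and its 24 h values of -0.01 and -0.04 did not pass. *Kcnq1*, of the slow delayed rectifier current, passed in none, with values between 0.09 and 0.23.

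Of the sodium channel genes, 8 alpha and 3 beta subunits were kept. *Scn2a*, a neuronal alpha subunit, rose with MeOH eluate at 6 h from 5.29 and 5.52 to 6.19, 6.09 and 6.39 (0.82 ± 0.17, adjusted p = 0.0048). *Scn8a*, another neuronal alpha subunit, fell with MeOH eluate at 6 h (-0.76 ± 0.15, adjusted p = 0.0028) from 9.03 and 9.04 to 8.28, 8.56 and 8.00. It also fell with WS1442 at 24 h (-0.64 ± 0.15, adjusted p = 0.0053) from 8.56 and 8.45 to 8.12, 7.78 and 7.68, at the brighter of its kept probes only.

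Of the other families, the small-conductance calcium-activated channel gene *Kcnn1* rose at 6 h with both treatments. It read 7.33 and 7.27 with DMSO, 7.82, 7.87 and 8.12 with WS1442 and 8.01, 8.45 and 8.04 with MeOH eluate. The changes were 0.63 ± 0.15 (adjusted p = 0.025, limma) and 0.87 ± 0.15 (adjusted p = 0.0012), and the dimmer probe of the gene gave 0.16, which did not pass, and 0.31 (adjusted p = 0.044). *Ryr1*, the skeletal muscle ryanodine receptor, rose with MeOH eluate at 6 h (0.79 ± 0.23, adjusted p = 0.031) at its brighter probe, from 5.64 and 6.24 to 6.89, 6.46 and 6.86, while the other probe gave -0.30 and did not pass. *Ryr2*, the cardiac ryanodine receptor, and *Hcn4*, the pacemaker channel of the sinoatrial node, passed against DMSO in none, with values between -0.15 and 0.24 and between -0.21 and 0.19. *Hcn2* and *Hcn3* did not pass either, and the DMSO arrays of *Hcn3* at 6 h, 6.37 and 7.63, differed by more than any of its changes. Of 13 two-pore channel genes, which set the resting potential through leak currents, *Kcnk6* and *Kcnk13* fell with MeOH eluate at 24 h (-0.54 and -0.50), and the cardiac members *Kcnk2* and *Kcnk3* passed in none. Among 14 accessory potassium channel subunits, *Kcnmb4*, of the large-conductance calcium-activated channel, fell at 24 h with WS1442 (-0.56 ± 0.13, adjusted p = 0.0076) and MeOH eluate (-0.45 ± 0.13, adjusted p = 0.032), from 6.89 and 6.90 to between 6.21 and 6.59. *Kcne1*, *Kcne3* and *Kcnip2*, accessory subunits of cardiac potassium currents, passed in none.

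Noncoding RNAs with channel names were among the members. *Kcnq1ot1*, an imprinted antisense transcript of the *Kcnq1* locus, rose at 6 h by 0.64 ± 0.15 (adjusted p = 0.031, limma) with WS1442 and 0.59 ± 0.15 (adjusted p = 0.018) with MeOH eluate, from 5.40 and 4.88 to between 5.60 and 5.90. *Kcnmb4os2*, an antisense transcript of *Kcnmb4*, fell at 24 h like *Kcnmb4* itself, by 0.43 ± 0.14 (log2 change -0.43, adjusted p = 0.042) with WS1442 and 0.69 ± 0.14 (log2 change -0.69, adjusted p = 0.0035) with MeOH eluate, from 6.31 and 6.25 to between 5.50 and 5.92. The annotated starts of the 2 transcripts lie 360 bases apart on opposite strands of chromosome 10 (GRCm38.p6).

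Promoter sequences are shown for the genes that fell at 24 h with both treatments and have 1 entry in the RefSeq table of promoters, so that the regions beside these changes can be read. The table (GRCm38.p6) held promoters for 88 of the 120 member genes. *Cacna1g* was not matched. The 250 bases before the annotated start were searched on both strands for 6 short motifs. GGGCGG is the GC box bound by Sp factors. CACGTG is an E-box bound by basic helix-loop-helix factors. The TATA box was searched as TATAAA near or far from the start. The cAMP response element was searched as TGACGTCA in its full form. The AP-1 site was searched as TGANTCA with any base in the middle. A GATA factor site was searched as AGATAA in both orientations. Matches are in capitals. The regions are chr9:107399630-107399879 (plus strand, *Cacna2d2*), chr2:107290339-107290588 (plus, *Kcna4*), chr9:32344345-32344594 (minus, *Kcnj5*) and chr10:116473524-116473773 (minus, *Kcnmb4*), written 5′ to 3′ in the direction of the gene.
Cacna2d2: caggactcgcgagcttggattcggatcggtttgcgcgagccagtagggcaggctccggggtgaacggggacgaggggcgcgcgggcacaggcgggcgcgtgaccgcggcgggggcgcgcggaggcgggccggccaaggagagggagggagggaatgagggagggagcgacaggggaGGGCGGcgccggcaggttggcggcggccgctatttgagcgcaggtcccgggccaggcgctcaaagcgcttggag
Kcna4: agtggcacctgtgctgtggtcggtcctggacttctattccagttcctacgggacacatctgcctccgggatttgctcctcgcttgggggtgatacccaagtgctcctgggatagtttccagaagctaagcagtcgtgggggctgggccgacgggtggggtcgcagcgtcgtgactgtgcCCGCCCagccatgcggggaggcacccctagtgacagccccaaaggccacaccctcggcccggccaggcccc
Kcnj5: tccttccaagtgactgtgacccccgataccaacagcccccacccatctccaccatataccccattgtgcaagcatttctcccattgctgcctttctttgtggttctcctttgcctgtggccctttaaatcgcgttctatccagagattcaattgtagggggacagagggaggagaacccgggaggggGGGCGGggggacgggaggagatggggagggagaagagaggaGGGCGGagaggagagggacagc
Kcnmb4: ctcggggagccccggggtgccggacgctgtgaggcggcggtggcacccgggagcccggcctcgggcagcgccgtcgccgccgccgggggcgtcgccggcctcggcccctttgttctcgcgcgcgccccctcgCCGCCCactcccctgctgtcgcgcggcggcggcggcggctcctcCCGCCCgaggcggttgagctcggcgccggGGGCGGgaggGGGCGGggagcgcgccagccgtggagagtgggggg
The GC box occurred 1 time in the *Cacna2d2* and *Kcna4* regions, 2 times in that of *Kcnj5* and 4 times in that of *Kcnmb4*, and the other 5 motifs in none of the 4. Of all 32851 promoter windows in the table, 32.7% held the GC box, and of 117 windows of members 41.9%. G and C made up 58.0% (*Kcnj5*) to 83.6% (*Kcnmb4*) of these 4 windows, beside a median of 52.4% over all windows.

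Of the 32 cardiac channel genes kept, 1 rose and 2 fell with WS1442 at 6 h (5.11% of all genes passed), and 2 rose and 3 fell at 24 h (24.5% of all genes). With MeOH eluate, 2 rose and 3 fell at each time point (16.9% of all genes at 6 h and 17.8% at 24 h). The median change over the list was 0.06, 0.10, 0.13 and 0.03, in the order WS1442 6 h, MeOH eluate 6 h, WS1442 24 h and MeOH eluate 24 h. Among the 9 genes that passed in at least 1 of these comparisons were *Cacna1g*, *Cacna2d2*, *Cacnb2*, *Kcna5*, *Kcnh2*, *Kcnj2* and *Kcnj5*. The sodium channel beta subunits *Scn2b* and *Scn3b*, the transient outward channel gene *Kcnd3*, the inward rectifier *Kcnj12* and the calcium-activated channel gene *Kcnn2* passed in none. For the remaining 23 a change was not detectable with these arrays, and standard errors reached 0.55 for the dim gene *Kcnj8*.

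**Figure D4:**
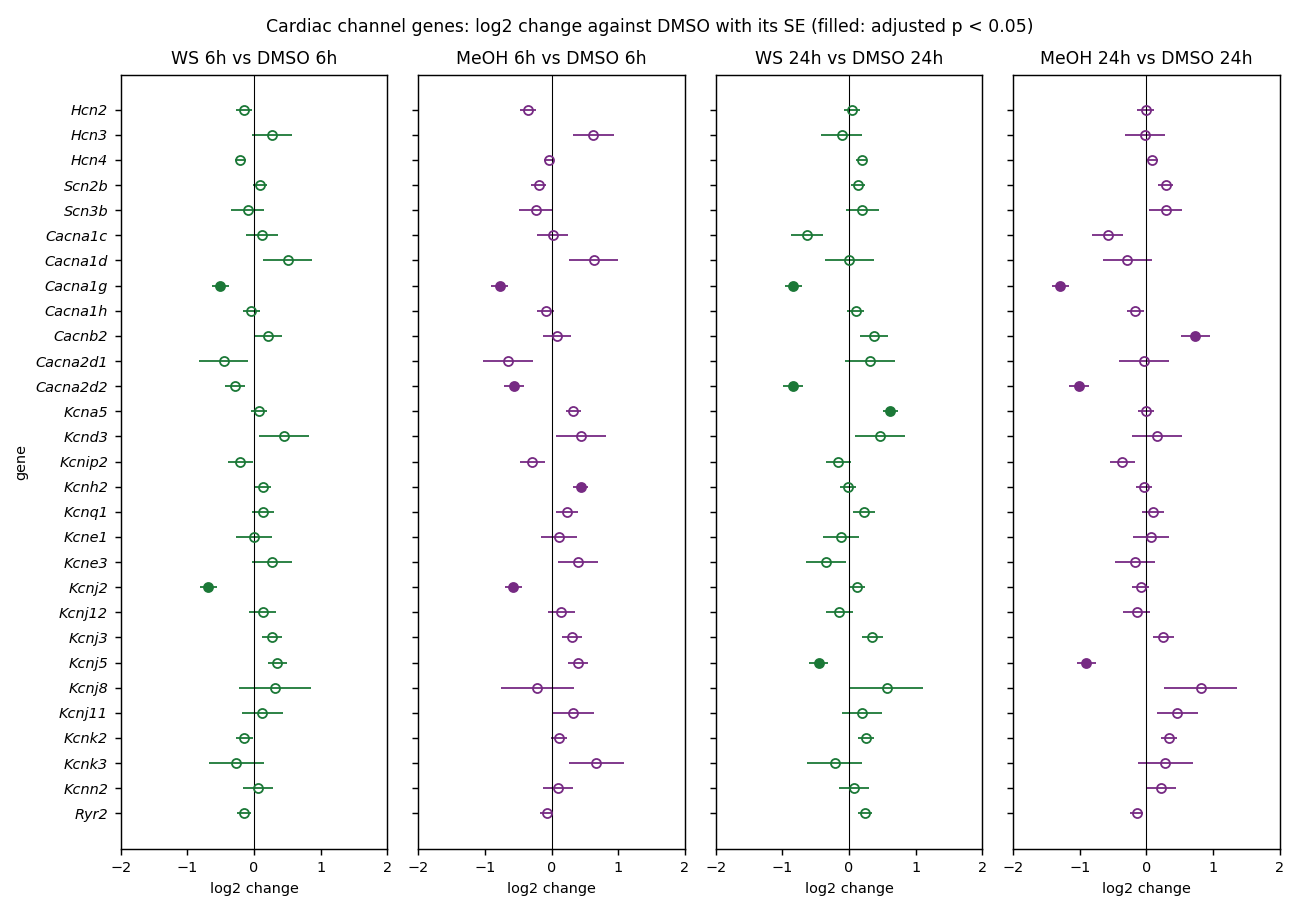
Log2 change against DMSO (x axis) with its standard error for 29 of the 32 kept genes of the cardiac channel list (y axis) in the 4 comparisons (WS, WS1442; MeOH, MeOH eluate). Filled points passed at an adjusted p-value under 0.05 and open points did not, and *Cacna1g* is filled in all 4 panels.

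The treatments, which were given at different mass concentrations, were also compared with each other, and at both times the share of members called was below that of all genes. At 6 h, 9 members were higher and 2 lower with MeOH eluate than with WS1442 (9.17% of members, beside 12.1% of all genes, of which 4.64% were higher and 7.46% lower). By the 2-fold limit with an unadjusted p-value under 0.05, 3 members passed, beside 1.19% of all genes. Among these were *Scn3a* (2.15 ± 0.65, adjusted p = 0.045), a neuronal sodium channel, and the inward rectifiers *Kcnj14* (1.77 ± 0.53, adjusted p = 0.043) and *Kcnj13* (1.09 ± 0.33, adjusted p = 0.046). In these 3 genes the WS1442 arrays differed widely from each other, and for *Scn3a* and *Kcnj14* 2 of the 3 WS1442 arrays were well above background, so the size of these differences rests partly on a signal that was not. *Scn3a* read 5.81, 3.95 and 1.60 with WS1442 and 6.02, 5.77 and 6.03 with MeOH eluate, and *Kcnj14* read 5.64, 4.19 and 2.32 beside 6.03, 5.56 and 5.88. *Kcnj13* read 8.87, 7.65 and 6.79 with WS1442 beside 9.12, 8.61 and 8.84. WS1442 replicate 1 overlapped the MeOH eluate arrays in all 3 genes, and replicate 3 was the lowest. The number of members called in this comparison was 1 without WS1442 6 h replicate 3, 1 without MeOH eluate 6 h replicate 3, 2 without MeOH eluate 6 h replicate 1, and 4 without WS1442 6 h replicate 2. It was 22 when WS1442 6 h replicate 1 was left out. It was 6 without WS1442 24 h replicate 2 or MeOH eluate 24 h replicate 1, and 7 without WS1442 24 h replicate 3, MeOH eluate 24 h replicate 2 or MeOH eluate 24 h replicate 3, which enter only through the shared variance.

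The spread was wide in WS1442 6 h samples for other members too. A total of 15 of 120 members ranged over more than 1 log2 unit between these 3 arrays, against 5 between the MeOH eluate 6 h arrays and 3 between the WS1442 24 h arrays. Over all genes the shares were 7.35%, 4.46% and 4.15%. In MeOH eluate 24 h samples 9 members ranged as widely (5.53% of all genes). In the pairs of DMSO arrays it was 9 at 24 h (7.03%) and 3 at 6 h (1.27%). WS1442 6 h replicate 3 was the lowest array for 10 of the 15, beside 44.6% of all genes with such a range. Among the 10 was the two-pore channel gene *Kcnk3*, which read 4.52 in replicate 1 and 2.48 in replicate 3. In *Scn11a*, a sodium channel gene of sensory neurons, replicate 1 was the lowest (2.34, 4.92 and 4.72).

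**Figure D5:**
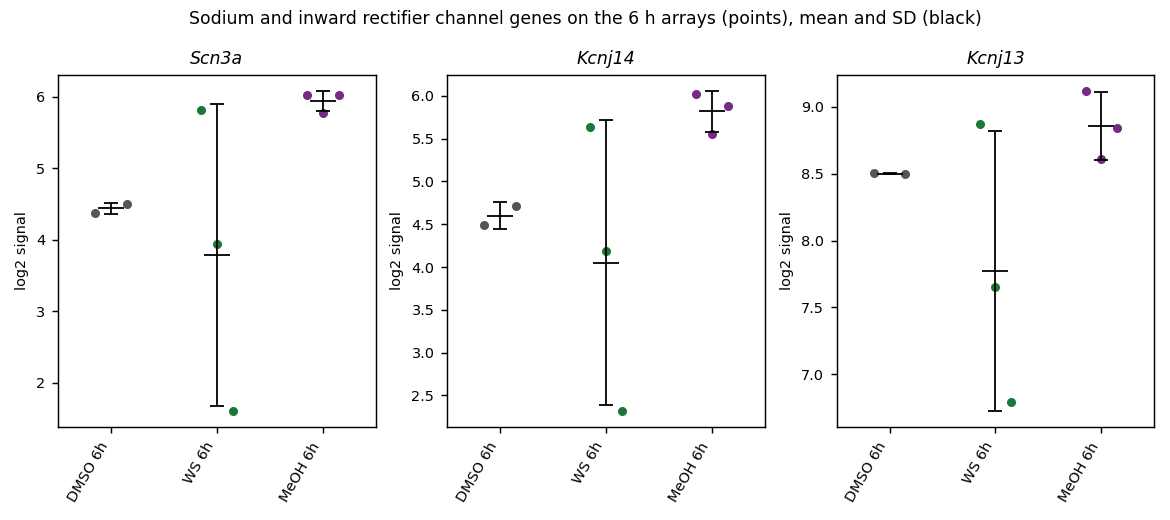
Normalized log2 signal (y axis) on the 6 h arrays (points) with mean and SD (black) for *Scn3a*, *Kcnj14* and *Kcnj13* in the DMSO (n = 2), WS1442 (WS, n = 3) and MeOH eluate (MeOH, n = 3) groups (x axis). The WS1442 points run from the level of MeOH eluate down to 1.60 for *Scn3a*, while the MeOH eluate points lie close together.

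At 24 h, 1 member was higher and 13 were lower with MeOH eluate than with WS1442 (11.7% of members, beside 14.2% of all genes, of which 7.44% were higher and 6.8% lower). The largest differences were in *Kcna5* (-0.63 ± 0.10, adjusted p = 0.0013, limma), *Cacng4* (-0.54 ± 0.16, adjusted p = 0.042), *Kcnj15* (-0.47 ± 0.12, adjusted p = 0.017), *Cacna1g* (-0.46 ± 0.11, adjusted p = 0.016) and *Kcnj5* (-0.45 ± 0.13, adjusted p = 0.030). *Kcnj15* read 6.50 and 6.39 with DMSO, 6.71, 6.95 and 7.13 with WS1442, and between 6.36 and 6.54 with MeOH eluate, so the WS1442 arrays stood alone, as for *Kcna5*. For *Cacna1g* and *Kcnj5* both treated groups lay below DMSO and MeOH eluate lay lower. *Ryr2* was also lower with MeOH eluate (-0.39 ± 0.09, adjusted p = 0.013). By the 2-fold limit 1 member passed, beside 0.47% of all genes. The number called was 5 when WS1442 24 h replicate 3 was left out, 8 for WS1442 24 h replicate 2, 8 for MeOH eluate 24 h replicate 2 and 6 for MeOH eluate 24 h replicate 3.

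The effect at 24 h was compared with that at 6 h as a difference of changes. With WS1442, 12 members had a higher and 6 a lower change at 24 h (15% of members, beside 12.2% of all genes, of which 5.42% were higher and 6.75% lower). With MeOH eluate, none had a higher and 6 a lower change (5% of members, beside 7.46% of all genes, of which 3.79% were higher and 3.67% lower). *Kcnj5* differed by -0.80 ± 0.20 (adjusted p = 0.021, limma) with WS1442 and -1.30 ± 0.20 (adjusted p = 0.0010) with MeOH eluate, and *Cacng4* by -0.94 ± 0.26 (adjusted p = 0.031) and -1.62 ± 0.26 (adjusted p = 0.0012). *Kcnn1*, which rose at 6 h, differed by -0.93 ± 0.21 (adjusted p = 0.012) and -0.75 ± 0.21 (adjusted p = 0.042). At their dimmer probes *Cacng4* (0.23 and -0.05) and *Kcnn1* (0.06 and -0.15) did not pass. *Kcnj2*, which fell at 6 h, differed by 0.80 ± 0.17 (adjusted p = 0.010) with WS1442. By the 2-fold limit, 0 members passed with WS1442 and 5 with MeOH eluate, beside 1.99% and 3.32% of all genes. The number of differences called with WS1442 was 4 without DMSO 6 h replicate 1, 5 without DMSO 24 h replicate 1, 8 without WS1442 24 h replicate 3, and 10 without DMSO 6 h replicate 2 or WS1442 6 h replicate 3. With MeOH eluate it was 3 without MeOH eluate 6 h replicate 2 and 10 without DMSO 24 h replicate 2.

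Genes that work with these channels, on a list of 40 for calcium handling, pumps, junctions and anchoring, were kept in 39 cases. With WS1442, 4 rose and 2 fell at 6 h (5.11% of all genes passed) and 8 rose and 3 fell at 24 h (24.5%). With MeOH eluate, 4 rose and 7 fell at 6 h (16.9%) and 8 rose and 5 fell at 24 h (17.8%). *Atp1b1*, a beta subunit of the sodium pump, rose in all 4 comparisons, most at 6 h with MeOH eluate (0.64 ± 0.07, adjusted p = 2.7e-05). *Pln*, the inhibitor of the calcium pump of the sarcoplasmic reticulum, fell with MeOH eluate at 6 h (-1.02 ± 0.28, adjusted p = 0.024). *Fkbp1b*, which binds ryanodine receptors, fell with it too (-0.56 ± 0.09, adjusted p = 0.00066). *Popdc2*, a membrane protein of heart conduction, fell at 6 h by 0.80 and 0.60 (log2 changes -0.80 and -0.60), and *Ank2*, which anchors channels and pumps, rose by 0.55 and 0.54. At 24 h *Gja1*, the main gap junction gene of ventricular muscle, rose by 0.56 ± 0.06 (adjusted p = 3.5e-05) with WS1442 and 0.42 ± 0.06 (adjusted p = 0.00020) with MeOH eluate. *Gja5*, the gap junction gene of atria and conduction fibres, was not well above background on either DMSO 24 h array. It read 2.69 and 3.83 with DMSO, 3.64 to 4.62 with WS1442 (2 of 3 arrays well above background) and 4.53 to 5.14 with MeOH eluate (3 of 3). The WS1442 and DMSO arrays thus overlapped. The log2 changes were 1.02 ± 0.34 (adjusted p = 0.045, limma) and 1.57 ± 0.34 (adjusted p = 0.0050), and their size rests partly on a DMSO signal near background. *Trpm4*, a calcium-activated cation channel gene, rose by 0.47 and 0.66, *Camk2d*, a calcium-dependent kinase, by 0.51 and 0.49, and *Itpr1*, a calcium release channel gene, fell with MeOH eluate at 6 h (-0.49 ± 0.08, adjusted p = 0.00084) and at 24 h (-0.50 ± 0.08, adjusted p = 0.00041).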

How the data were processed

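Total RNA of the 16 samples was amplified, labelled with Cy3 and hybridised by the service laboratory to 1-colour Agilent arrays with 61473 gene spots each. The deposited scanner files hold intensities that the authors' feature extraction had corrected for background within the array. A further deposited table holds intensities that the authors quantile normalized over all samples, and was used as an alternative. Signals carry no counts, so the number of arrays limits the precision. Spots called non-uniform (3 to 25 per array) were set missing, spots of a probe were averaged, and quantile normalization over all 16 arrays was applied to log2 intensities. A probe was kept if some group had it well above background on all its arrays, and 36 kept probes with missing values were dropped, none of them a member, which left 36691. Means of 6 groups were fitted with limma 3.58.1 in R 4.3.3 (lmFit, eBayes with trend), p-values were adjusted over all probes tested, and a gene was called at an adjusted p-value under 0.05 at its brightest kept probe. Tables and figures were made in Python 3.11.15. The procedure was tested on simulated data.

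Members and gene lists were chosen with earlier results of these data known, so counts over them are descriptions. Named are the kept cardiac channel genes, up to 8 called genes with the largest change per comparison with DMSO, up to 5 per other comparison, up to 6 called partner genes per time point and the members next to the background limit. Some genes that this rule names are not reported here, and the figures by gene show only genes named in the text. Others are named as chosen after their values were seen or stand as examples of a family count. The symbols of the array were resolved through RefSeq accessions, a step added because few name cells held a symbol. Alternatives covered the values used, scaling, background correction, filter, probe choice, variance prior, time point, replicate number, slide row, array weights, Student's t-test (named by the study for pairwise comparisons), the limits of a 2-fold change at an unadjusted p-value under 0.05, and each array left out. No column of the study's own comparisons was used.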

Additional observations from a re-analysis of the deposited data

Results flagged for a closer look

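The effect of a treatment differed between 6 h and 24 h for the members below, by the interaction term of the limma fit (adjusted over all probes tested). With WS1442 the change at 24 h minus that at 6 h was -0.94 for *Cacng4* (adjusted p = 0.031), -0.93 for *Kcnn1* (0.012), 0.84 for *Kcnj6* (0.019), 0.80 for *Kcnj2* (0.010) and -0.80 for *Kcnj5* (0.021). With MeOH eluate it was -1.62 for *Cacng4* (adjusted p = 0.0012), -1.30 for *Kcnj5* (0.0010), -0.77 for *Kcnmb4os2* (0.034), -0.75 for *Kcnn1* (0.042) and -0.68 for *Kcnab3* (0.0495). The slide differs between the time points, and DMSO arrays enter both changes of a time point. Leaving out 1 array at a time kept the *Cacng4* and *Kcnj5* differences with MeOH eluate in all cases, with adjusted p-values of up to 0.0089 and 0.0099, and lost that of *Kcnab3* in 13 of 16. All these values are for the brightest probe. The dimmer probe of *Cacng4* gave 0.23 with WS1442 and -0.05 with MeOH eluate, and that of *Kcnn1* gave 0.06 and -0.15. The dimmer probes of *Kcnj6* gave 0.21 and 0.16 with WS1442. None of these dimmer probes passed. No group held enough arrays for a test of single outlying samples.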

How the results depend on the processing

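None of the 105 called pairs of member and comparison changed sign under any alternative, and 31 were kept under every one, leaving aside the methods' t-test and the 2-fold limits. For calls against DMSO, leaving out 1 array could not change the sign, because the arrays of the groups do not overlap. Settings that use the same group means cannot change it either, so the equal signs are no check there. The slide row within each slide was added as a block after seeing the data. In the order WS1442 6 h, MeOH eluate 6 h, WS1442 24 h and MeOH eluate 24 h against DMSO, then MeOH eluate against WS1442 at 6 h and 24 h, then the 24 h minus 6 h effect of WS1442 and MeOH eluate, 6, 13, 21, 16, 11, 14, 18 and 6 members were called. The limits of 2-fold and unadjusted p left 0, 3, 0, 2, 3, 1, 0 and 5. The methods' t-test, adjusted, called 0 in the 6 comparisons of groups, although 13, 26, 20, 17, 15 and 27 passed unadjusted. Without the filter on dim probes 2 were called with WS1442 at 6 h, 5 and 9 between treatments and 3 for the MeOH eluate effect. A fit within the time point called 0 with WS1442 at 6 h (17 at an unadjusted p under 0.05 in the full fit) and 2 between treatments at 6 h. No variance trend gave 5 there and 11 for the WS1442 effect. Slide row as a block gave 7 between treatments at 6 h, and within each slide 5 there and 3 with WS1442 at 6 h. Array weights gave 21 with MeOH eluate at 6 h and 17 between treatments at 6 h. The replicate block gave 3 with WS1442 at 6 h and 3 for the MeOH eluate effect, and lost 25 of the 105 calls. In their deviations from the group means, same-numbered arrays correlated between -0.22 and 0.28, and differently numbered arrays between -0.19 and 0.24. Deviations from means of 2 or 3 arrays are tied to each other, so these values cannot settle whether the numbers pair the arrays. Leaving out 1 array gave 1 to 7, 7 to 19, 12 to 24, 10 to 17, 1 to 22, 5 to 15, 4 to 23 and 3 to 10. The causes of these differences between settings were not tested. The authors' own normalized values gave the same counts as the main setting. With 2 DMSO arrays per time point, small changes of dim genes were not detectable.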

Other observations

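Dimmer probes of several member genes passed the test where the brightest probe of the gene did not, and these values stand outside the counts above. A second probe of *Cacna1b*, an N-type calcium channel gene, was higher by 1.96 ± 0.37 (adjusted p = 0.0015, limma) with MeOH eluate at 24 h, where the brightest probe gave 0.77 (adjusted p = 0.054). Another probe of *Kcnma1*, the large-conductance calcium-activated channel gene, was higher by 1.06 ± 0.24 (adjusted p = 0.0060) with MeOH eluate at 24 h, where the brightest gave 0.03. A second probe of *Kcnh1*, a voltage-gated channel gene of the nervous system, was higher with MeOH eluate by 1.30 ± 0.29 at 6 h (adjusted p = 0.0073) and by 1.07 ± 0.29 at 24 h (adjusted p = 0.018), where the brightest gave -0.12 and 0.72. A second probe of the T-type gene *Cacna1h* was higher by 0.99 ± 0.32 (adjusted p = 0.034) with WS1442 at 24 h, where the brightest gave 0.10, and one of *Cacng6* by 0.41 ± 0.12 (adjusted p = 0.035) with MeOH eluate at 24 h, where the brightest gave 0.16.

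The 3 kept probes of *Cacna1a*, a P/Q-type calcium channel gene of neurons, differed in sign with MeOH eluate at 24 h. One fell by 0.55 ± 0.09 (log2 change -0.55, adjusted p = 0.00076, limma), one rose by 0.33 ± 0.10 (adjusted p = 0.027), and the brightest gave 0.12 and did not pass. The probe that fell was also lower with WS1442 at 24 h (-0.51 ± 0.09, adjusted p = 0.0013), where the brightest gave 0.06. Which transcript forms each probe reports was not examined. Counted by probes, 6, 16, 23 and 22 of 149 were called against DMSO in the order WS1442 6 h, MeOH eluate 6 h, WS1442 24 h and MeOH eluate 24 h. Of the 15 kept probes whose symbol stood in the name cell itself, 1, 2, 1 and 3 were called.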
